A study of Mus musculus with 11 samples.

Results

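*Mrpl49*, *Arhgap36*, *Shisa2*, *Pheta1* and *Nptx2* are 5 of the 19329 genes measured in whole pancreatic islets of mice carrying PDX1P33T, a proline-to-threonine change in the pancreatic transcription factor PDX1, and of wild-type mice. The 5 genes were chosen because their wild-type and PDX1P33T values stand on the same row of the deposited table, which holds for 13 genes at the top of a list ordered with the study's genotype comparison, whereas most other rows pair one gene's PDX1P33T values with another gene's wild-type values. Their genotype differences therefore belong to how they were chosen, and are given below as a description with no test. Bulk RNA was sequenced from the islets of 14-week-old male mice, in 6 wild-type libraries and 5 libraries of mice homozygous for PDX1P33T, and no treatment was given. All mice were of the inbred strain C57BL/6N and fed chow, the change was made by CRISPR-Cas9 editing of embryos, and the islets were cultured for 1 or 2 days before the RNA was taken. The methods speak of wild-type littermates but also of homozygous intercrosses, so litter and genotype cannot be told apart, and islets of more than 1 mouse may have gone into a library.

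The 5 genes belong to different processes. *Mrpl49* encodes a protein of the large subunit of the mitochondrial ribosome, which translates the mitochondrial genome's respiratory chain subunits. ARHGAP36 binds the catalytic subunit of protein kinase A, blocks it and lowers its amount, and through this can switch on GLI factors of the Hedgehog pathway. SHISA2 sits in the endoplasmic reticulum and holds back immature Frizzled and FGF receptors, which weakens Wnt and FGF signalling. PHETA1 binds the inositol phosphatase OCRL and takes part in recycling from endosomes to the trans-Golgi network. NPTX2 is a secreted neuronal pentraxin that clusters AMPA-type glutamate receptors at excitatory synapses. PDX1 itself is a homeodomain protein that binds DNA at sites with a TAAT core and maintains beta cell identity.

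To show the sequence around the starts of these genes, windows of 250 bases before each RefSeq start (GRCm38.p6, the build of the sequence table used here) were read for the 4 of 5 genes with an entry, *Arhgap36* with 2 starts. *Nptx2* is named only. Stretches outside annotated neighbouring transcripts, and 30 bases around a cAMP response element that lie in an exon of *Fau*, are printed 5′ to 3′ on the gene's own strand in lower case, with the motifs searched in capitals. For *Pheta1*, the end of *4933437G19Rik* named below is its edge facing *Pheta1*. As *4933437G19Rik* is on the - strand, this edge is its annotated start. Searched on both strands were TAAT, the core of homeodomain sites, the cAMP response element TGACGTCA, the CCAAT box and the GC box, which reads GGGCGG.
*Shisa2*, chr14:59625031-59625280, + strand: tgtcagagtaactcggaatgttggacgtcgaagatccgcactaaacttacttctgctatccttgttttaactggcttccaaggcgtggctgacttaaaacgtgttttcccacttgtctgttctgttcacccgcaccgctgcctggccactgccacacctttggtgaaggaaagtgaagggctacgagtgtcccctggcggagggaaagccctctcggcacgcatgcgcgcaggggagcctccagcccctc
*Arhgap36*, first start, chrX:49463695-49463944, + strand: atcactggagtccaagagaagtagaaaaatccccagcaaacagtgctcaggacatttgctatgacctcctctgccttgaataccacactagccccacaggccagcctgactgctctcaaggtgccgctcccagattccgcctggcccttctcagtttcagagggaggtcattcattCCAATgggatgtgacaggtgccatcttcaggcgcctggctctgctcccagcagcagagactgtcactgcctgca
*Pheta1*, from the end of the neighbouring *4933437G19Rik* to the GENCODE start, chr5:121848845-121848983, + strand: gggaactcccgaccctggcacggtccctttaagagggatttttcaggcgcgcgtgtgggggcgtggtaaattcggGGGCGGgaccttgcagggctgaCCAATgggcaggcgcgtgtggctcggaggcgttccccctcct
*Mrpl49*, the gap to *Fau*, chr19:6057786-6057843, - strand: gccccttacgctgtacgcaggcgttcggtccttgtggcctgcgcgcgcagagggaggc
*Mrpl49*, the cAMP response element, chr19:6057891-6057920, - strand: cctgctgcgtgTGACGTCActgcagcgcga

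The TAAT core was found in 0 of the 5 windows and in 54.9% of all 32851 promoter windows of the same length. The cAMP response element stood 154 to 147 bases before the RefSeq start of *Mrpl49*, which is 124 to 117 bases before the GENCODE vM21 start that bounds the printed gap, in a window that is shared with the divergently transcribed *Fau*, and 1.55% of all windows held it. CCAAT was found before *Arhgap36* and *Pheta1* (33.8% of all windows) and the GC box before *Mrpl49* and *Pheta1* (32.7%). The *Mrpl49* window held 69.6% G and C, and that of *Shisa2* 56% (median of all windows, 52.4%). A match is a run of letters and not a site in use, and its absence says only that these letters are not in this window.

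The libraries held 19311937 to 37094286 counted reads. The 7 beta cell markers looked for were all present, with a summed level of 235821 to 333379 FPKM (fragments scaled to transcript length and to the counted reads of the library) in the PDX1P33T libraries, and acinar markers summed to 8.44 to 107 FPKM. The 4 beta cell markers that could be compared summed to 199833 to 280771 FPKM in wild-type and 235571 to 333129 FPKM in PDX1P33T. Their bearing on the FPKM of other genes was not tested. A base change cannot be seen in gene-level FPKM, so the values do not check the genotype labels. Over the 4725 genes that could be compared between genotypes, wild-type replicate 1 lay closer to the PDX1P33T libraries (median r = 0.989, across genes, which are not independent replicates) than to the other wild-type libraries (0.983), and each of the other 10 libraries lay closer to its own genotype. Wild-type replicate 3 had the highest summed level of the endothelial markers *Pecam1*, *Kdr* and *Cdh5* (146 FPKM) and PDX1P33T replicate 2 the lowest (22.0 FPKM). Values without these 3 libraries are given with each gene.

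In PDX1P33T islets, *Mrpl49*, *Arhgap36*, *Pheta1* and *Nptx2* stood lower and *Shisa2* stood higher than in wild-type islets. For 4 of the 5 genes the libraries of the genotypes did not overlap, *Nptx2* being the exception, where 4.85% of all 4725 compared genes do not overlap. A change of at least 1.5-fold was reached by 4 of 5 genes, *Mrpl49* being the exception, against 13.3% of all compared genes. Since these differences chose the genes, nothing is read from their counts.

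**Figure D1:**
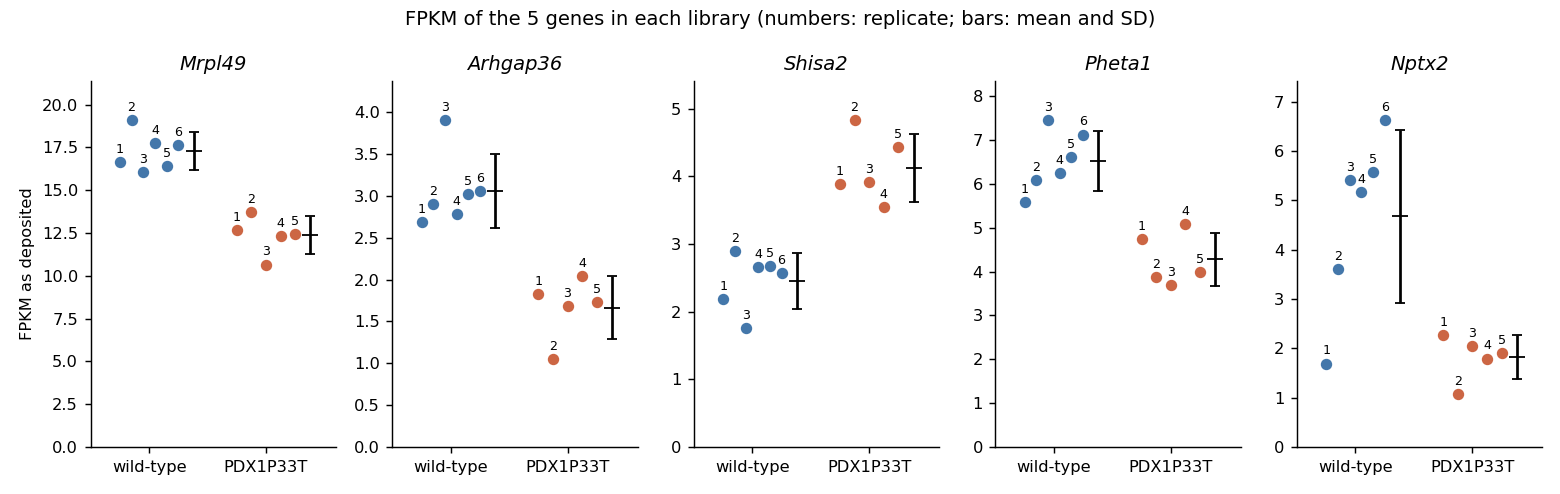
FPKM of *Mrpl49*, *Arhgap36*, *Shisa2*, *Pheta1* and *Nptx2* in the 6 wild-type (blue) and 5 PDX1P33T (orange) libraries, each point a library with its replicate number, with the group mean and SD in black. The groups are apart for all but *Nptx2*, where wild-type replicate 1 (1.69 FPKM) lies among the PDX1P33T libraries.

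*Mrpl49* was the most abundant of the 5. Its wild-type libraries ranged from 16.1 to 19.1 FPKM with a median of 17.1, on 583 to 1237 reads. The PDX1P33T libraries held 12.7, 13.7, 10.7, 12.3 and 12.4 FPKM, in the order of replicates 1 to 5. Every PDX1P33T library lay below every wild-type library, and the highest of them, replicate 2, still lay 2.37 FPKM under the lowest wild-type library, replicate 3. The means were 17.3 ± 1.11 (SD, n = 6) and 12.4 ± 1.10 FPKM (SD, n = 5), 1.40-fold lower in PDX1P33T, with a log2 fold change of -0.48 (SE 0.083) on the log2(FPKM + 0.1) scale used throughout. The difference was -0.49 without wild-type replicate 1, -0.50 without wild-type replicate 3 and -0.52 without PDX1P33T replicate 2. *Mrpl49* overlaps *Syvn1*, which is transcribed from the opposite strand, and the methods name both stranded and unstranded libraries, so reads of the overlap cannot be told apart.

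*Arhgap36*, the X-linked protein kinase A inhibitor, was at 2.68 to 3.91 FPKM in wild-type islets (median 2.97), on 214 to 353 reads. Its PDX1P33T values were 1.83, 1.05, 1.69, 2.04 and 1.73 FPKM. Wild-type replicate 3 stood above the other wild-type libraries, PDX1P33T replicate 2 below the other mutant libraries, and the groups did not overlap. Means of 3.06 ± 0.438 (SD, n = 6) and 1.67 ± 0.372 FPKM (SD, n = 5) gave a level 1.84-fold lower in PDX1P33T and a log2 fold change of -0.86 (SE 0.15). It was -0.89 without wild-type replicate 1, -0.79 without wild-type replicate 3 and -0.71 without PDX1P33T replicate 2.

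*Shisa2* went the other way. Wild-type libraries held 1.76 to 2.89 FPKM (median 2.61) on 125 to 363 reads. The PDX1P33T libraries held 3.89, 4.83, 3.92, 3.55 and 4.43 FPKM. The lowest wild-type value was that of replicate 3 and the highest mutant value that of replicate 2, the same libraries that were extreme for *Arhgap36*, in the opposite direction. The means were 2.46 ± 0.413 (SD, n = 6) and 4.12 ± 0.506 FPKM (SD, n = 5), 1.68-fold higher in PDX1P33T, with a log2 fold change of 0.73 (SE 0.13). Leaving out wild-type replicate 1, wild-type replicate 3 or PDX1P33T replicate 2 gave 0.70, 0.64 and 0.67.

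*Pheta1*, the OCRL adaptor, was at 5.59 to 7.45 FPKM in wild-type libraries (median 6.43), on 314 to 559 reads. In PDX1P33T libraries it was at 4.73, 3.88, 3.69, 5.08 and 3.99 FPKM. Wild-type replicate 1 was the lowest of its group and lay 0.502 FPKM above the highest mutant library, replicate 4. The means of 6.52 ± 0.688 (SD, n = 6) and 4.28 ± 0.601 FPKM (SD, n = 5) stood 1.53-fold apart, with a log2 fold change of -0.60 (SE 0.11). It was -0.64 without wild-type replicate 1, -0.56 without wild-type replicate 3 and -0.57 without PDX1P33T replicate 2.

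*Nptx2*, the synaptic pentraxin, had the widest spread relative to its mean and the largest fold change of the 5. Its wild-type libraries ran from 1.69 to 6.63 FPKM (median 5.29) on 100 to 486 reads, and the PDX1P33T libraries held 2.27, 1.08, 2.05, 1.79 and 1.91 FPKM. Wild-type replicate 1 lay inside the mutant range, and the other wild-type libraries, from 3.60 FPKM up, lay above it. The coefficient of variation was 37.6% in wild-type and 24.8% in PDX1P33T, against 6.45% and 8.92% for *Mrpl49*. The means were 4.68 ± 1.76 (SD, n = 6) and 1.82 ± 0.452 FPKM (SD, n = 5), 2.57-fold lower in PDX1P33T, with a log2 fold change of -1.24 (SE 0.31). Without wild-type replicate 1, the library closest to the mutant libraries over all genes, it was -1.50, and without wild-type replicate 3 or PDX1P33T replicate 2 it was -1.17 and -1.07. *Nptx2* is the last of the 13 genes on their own rows. The first gene past it is *Ngfr*, whose deposited row holds 0 to 0.0118 FPKM in wild-type libraries where the values that belong to it, found by its reads, are 0.772 to 3.66 FPKM, against 0.293 to 0.695 FPKM in PDX1P33T.

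Levels in FPKM are per length and can be ordered. In wild-type islets the order by mean was *Mrpl49*, *Pheta1*, *Nptx2*, *Arhgap36* and *Shisa2*, with overlapping libraries between each neighbouring pair but the first. In PDX1P33T islets it was *Mrpl49*, *Pheta1*, *Shisa2*, *Nptx2* and *Arhgap36*, where *Pheta1* overlapped *Shisa2* and *Nptx2* overlapped *Arhgap36*. *Shisa2* thus changed place from last to the third, and its PDX1P33T libraries all lay above those of *Nptx2* and *Arhgap36*.

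The 5 genes were set against the level of endothelial markers in the same libraries, a relation chosen after the data were seen and given as a description with no test. Summed *Pecam1*, *Kdr* and *Cdh5*, the 3 of 4 endothelial markers that could be compared, ranged from 28.1 to 146 FPKM in wild-type and from 22.0 to 51.4 FPKM in PDX1P33T libraries. Each gene's deviations from its genotype means were correlated with those of the mean log2 marker level over the 11 libraries. *Arhgap36* gave r = 0.82 and rho = 0.83, and *Pheta1* gave r = 0.81 and rho = 0.96. *Nptx2* gave r = 0.73 and rho = 0.69, *Shisa2* r = -0.64 and rho = -0.54, and *Mrpl49* r = -0.34 and rho = -0.28. Such values were common among the 4725 compared genes: an r at least as far from 0 was found in 19.4% of them for *Arhgap36*, 20.1% for *Pheta1*, 33.1% for *Nptx2*, 44.3% for *Shisa2* and 75.8% for *Mrpl49*. The relation is therefore not particular to these genes.

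**Figure D2:**
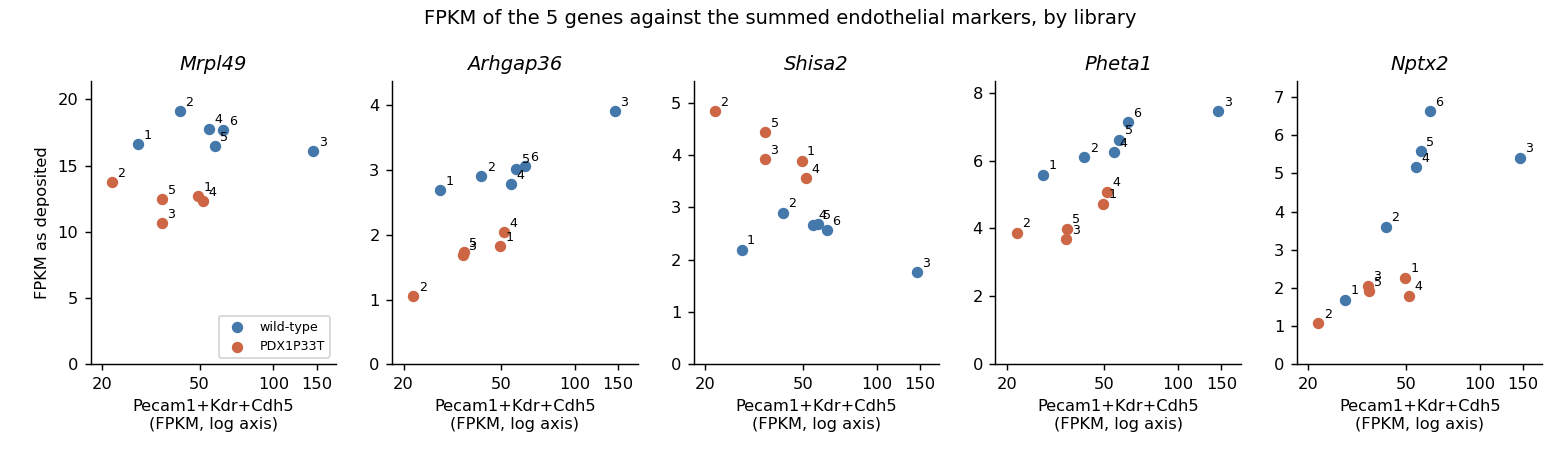
FPKM of each of the 5 genes against the summed FPKM of *Pecam1*, *Kdr* and *Cdh5* (log axis), each point a library with its replicate number, wild-type in blue and PDX1P33T in orange. Within each genotype *Arhgap36* and *Pheta1* lie higher in libraries with more endothelial transcript, and wild-type replicate 3 (146 FPKM of markers) stands alone at the right.

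Without wild-type replicates 3 and 1, the libraries whose marker level, taken as its deviation from the genotype mean, lay farthest from the median, r was 0.89 for *Arhgap36*, 0.79 for *Pheta1*, 0.73 for *Nptx2*, -0.83 for *Shisa2* and -0.42 for *Mrpl49*. With the marker level as a covariate, a fit also chosen after the data were seen, the genotype differences were -0.52 for *Mrpl49*, -0.66 for *Arhgap36*, 0.60 for *Shisa2*, -0.47 for *Pheta1* and -0.84 for *Nptx2*, each in the direction found without it. Without the covariate they were -0.48, -0.86, 0.73, -0.60 and -1.24 in that order. The difference of *Mrpl49* was thus larger with the covariate, and those of the other genes were smaller. Whether endothelial RNA takes part in the genotype differences was not tested further. In bulk RNA, fewer cells of a type and less RNA per cell cannot be told apart. The summed compared stromal markers ran from 1.46 to 27.1 FPKM in wild-type and 1.92 to 3.23 FPKM in PDX1P33T, and leukocyte markers from 19.8 to 50.6 and 15.6 to 24.8 FPKM.

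Among the 5 genes, deviations from the genotype means were most alike for *Arhgap36* and *Pheta1* (r = 0.68 over 11 libraries), followed by *Mrpl49* and *Shisa2* (0.61), *Pheta1* and *Nptx2* (0.59) and *Arhgap36* and *Nptx2* (0.57). *Arhgap36* and *Shisa2* went in opposite directions (r = -0.69), as did *Mrpl49* and *Arhgap36* (-0.50). All these points share the same 11 libraries, which differ in marker levels and depth, so the values describe these libraries.

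The genes whose deviations were most like those of each gene were taken from 3538 compared genes with a mean of at least 1 FPKM. For *Mrpl49* the first was *Mrps21* (r = 0.88), another mitochondrial ribosomal gene. For *Arhgap36* they were *Myh9* (0.99), the non-muscle myosin heavy chain, *Babam2* (0.99), a subunit of a deubiquitinating complex, and *Sptan1* (0.98), a spectrin. *Shisa2* was followed by *Zfp251* (0.90), *Glb1l2* (0.89) and *Gm15663* (0.88). *Pheta1* was followed by *Cldn6* (0.96), a tight junction claudin, *Tor1b* (0.96), an endoplasmic reticulum ATPase, and *Nova2* (0.94), a neuronal splicing factor. *Nptx2* was followed by *Hip1r* (0.96), a clathrin-coat protein, *Tmem97* (0.95), a sterol-binding membrane protein, and *Rcc2* (0.93), a mitotic regulator. Correlations over 11 libraries, picked as the highest of many, are a description.

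Genes of the same processes were then compared between genotypes where their wild-type values could be put back on the right row, which was possible for 32 of 145 listed genes found in the table (9 of 154 were not). With limma on log2(FPKM + 0.1), 0 of these 32 met the call rule, a 1.5-fold change together with an adjusted p no higher than 0.05 (0.0847% of the 4725 compared genes did), and 6 had an unadjusted p under 0.05, where 34.0% of all compared genes did. Of the 6, 4 were higher (15.7% of all compared genes) and 2 lower (18.3%). All 6 had been put back through their reads in a list ordered by the genotype comparison. That route gave 1672 of the 4725 compared genes. The counts and shares thus depend on how a row was found, and nothing is read from them. None of the 32 had groups that did not overlap, where 4.85% of all compared genes did. The median log2 fold change of the 32 was 0.10, that of all compared genes -0.06.

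The mitochondrial ribosome list held 80 gene IDs besides *Mrpl49*, 4 of them named as pseudogenes. In PDX1P33T islets all 76 others were detected, 47 of the large and 29 of the small subunit, from 2.13 ± 0.663 FPKM for *Mrps22* to 61.0 ± 9.05 FPKM for *Mrps21* (SD, n = 5). *Mrpl49* stood near the middle, with 32 genes above it and 44 below. Its coefficient of variation over the PDX1P33T libraries, 8.92%, was lower than the median of the list, 15.0%, and 11 genes varied less.

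**Figure D3:**
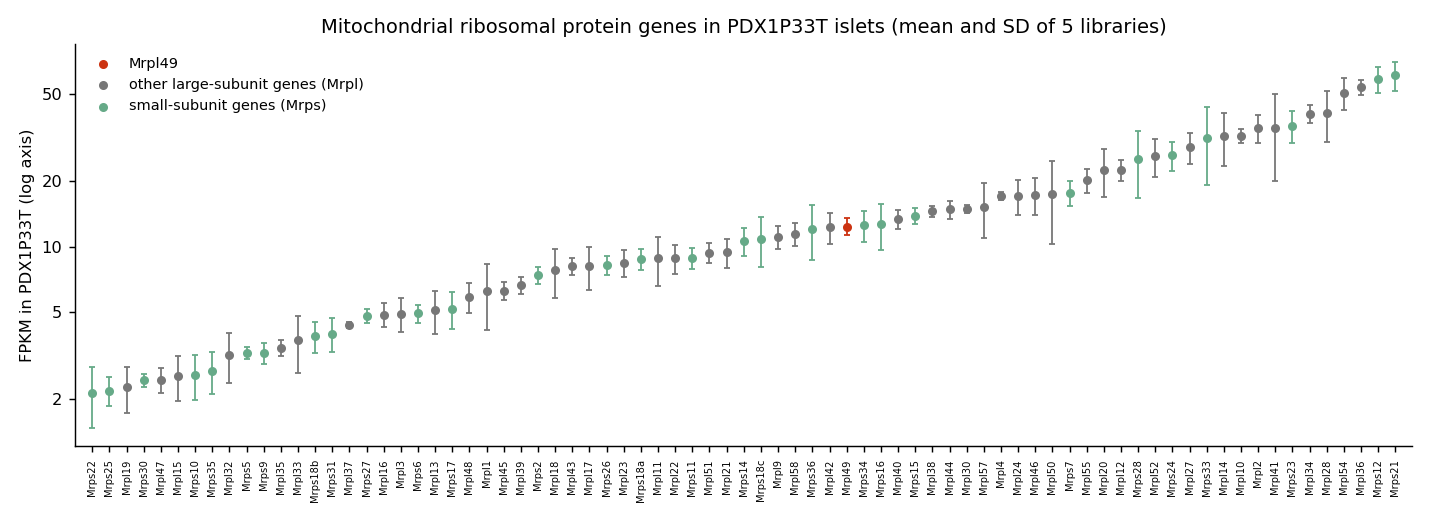
Level of 77 mitochondrial ribosomal protein genes in the 5 PDX1P33T libraries, ordered by mean FPKM (log axis), with SD. *Mrpl49* (red, 12.4 FPKM) lies near the middle of a range from 2.13 to 61.0 FPKM.

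Between genotypes, 14 of the 80 could be compared, 3 through their reads and 11 by length and level. Called genes numbered 0 (0.0847% of all compared genes), and 2 had an unadjusted limma p under 0.05 (34.0% of all compared genes). These were *Mrps11*, lower at a log2 fold change of -0.30 (SE 0.13, adjusted p = 0.530), and *Mrps33*, higher at 0.46 (SE 0.21, adjusted p = 0.577), both named after their values were seen. The median of the 14 was 0.10, and values ran from -0.36 for *Mrpl12* to 0.46 for *Mrps33*. *Mrpl49*, at -0.48, lay below all 14, but it was chosen on this contrast, so nothing is read from its place. *Mrps21*, whose pattern among libraries was most like that of *Mrpl49*, was at 0.16 (SE 0.10).

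For *Arhgap36*, transcripts of the listed protein kinase A subunits ran from 4.62 FPKM for *Prkar2a* to 131 FPKM for *Prkar1a* in PDX1P33T islets. The protein kinase A catalytic subunit genes *Prkaca* and *Prkacb* stood at 52.9 ± 5.10 and 36.0 ± 3.16 FPKM, and the regulatory subunit gene *Prkar1a* at 131 ± 17.9 FPKM (SD, n = 5), all above *Arhgap36* at 1.67 FPKM. The Hedgehog effectors *Gli2* and *Gli3* were barely detected, at 0.0128 ± 0.0128 and 0.0183 ± 0.0114 FPKM. Other listed Hedgehog genes stood higher, *Ptch1* at 1.31 ± 0.164, *Sufu* at 0.920 ± 0.173 and *Smo* at 0.543 ± 0.0847 FPKM. Wild-type values of *Prkaca*, *Prkacb*, *Prkar1a* and the named Hedgehog genes were not put back, so they have no comparison. Of 14 genes of this list in the table, 3 could be compared and 0 were called (0.0847% of all compared genes). An unadjusted limma p under 0.05 (34.0% of all compared genes) was found for 1 of the 3. *Pkia*, encoding another protein kinase A inhibitor and named after its values were seen, had an unadjusted p under 0.05, with 5.79 FPKM in wild-type and 8.52 FPKM in PDX1P33T (log2 fold change 0.48, SE 0.21, limma adjusted p = 0.544), in the direction opposite to *Arhgap36*.

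For *Shisa2*, the family members *Shisa5* and *Shisa4* stood at 32.2 ± 3.96 and 0.591 ± 0.0849 FPKM in PDX1P33T (SD, n = 5), against 4.12 FPKM for *Shisa2*. Of the 22 listed genes measured, 5 could be compared. Of these, 0 were called (0.0847% of all compared genes) and 0 had an unadjusted limma p under 0.05 (34.0%). *Shisa5* was at -0.06 (SE 0.13) on the log2 scale, the Frizzled receptor *Fzd3* at 0.20 (SE 0.12) and the FGF receptor *Fgfr1* at -0.34 (SE 0.16, adjusted p = 0.602). *Fgfr1* held 3.18 FPKM in wild-type and 2.48 FPKM in PDX1P33T.

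For *Pheta1*, its paralog *Pheta2* was low, at 0.282 ± 0.135 FPKM in PDX1P33T, against 4.28 FPKM for *Pheta1*. The phosphatase gene *Ocrl*, whose product PHETA1 binds, was at 4.25 FPKM in wild-type and 5.20 FPKM in PDX1P33T, a log2 fold change of 0.29 (SE 0.087) that did not pass in limma (adjusted p = 0.499). The related phosphatase gene *Inpp5b* stood at 5.33 ± 0.227 FPKM in PDX1P33T (SD, n = 5). Of the 19 listed genes measured, 6 could be compared and 0 were called (0.0847% of all compared genes). *Ocrl* was the gene of unadjusted limma p under 0.05 (34.0% of all compared genes).

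For *Nptx2*, the related pentraxin *Nptx1* stood at 1.72 ± 0.181 FPKM and the pentraxin receptor *Nptxr* at 24.1 ± 4.57 FPKM in PDX1P33T (SD, n = 5). The libraries of *Nptx1* and *Nptx2* (1.82 ± 0.452 FPKM) overlapped. The AMPA receptor subunit genes *Gria2* and *Gria3* were low, at 0.434 and 0.858 FPKM in PDX1P33T, with log2 fold changes of 0.16 (SE 0.12) and 0.25 (SE 0.10). Of the 10 listed genes measured, 4 could be compared and 0 were called by limma (0.0847% of all compared genes). An unadjusted p under 0.05 (34.0% of all compared genes) was found for 2, *Gria3* (adjusted p = 0.514) and *Cacng4*. *Cacng4*, an auxiliary subunit of AMPA receptors named after its values were seen, was at 2.14 FPKM in wild-type and 1.25 FPKM in PDX1P33T (-0.73, SE 0.23, adjusted p = 0.499).

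**Figure D4:**
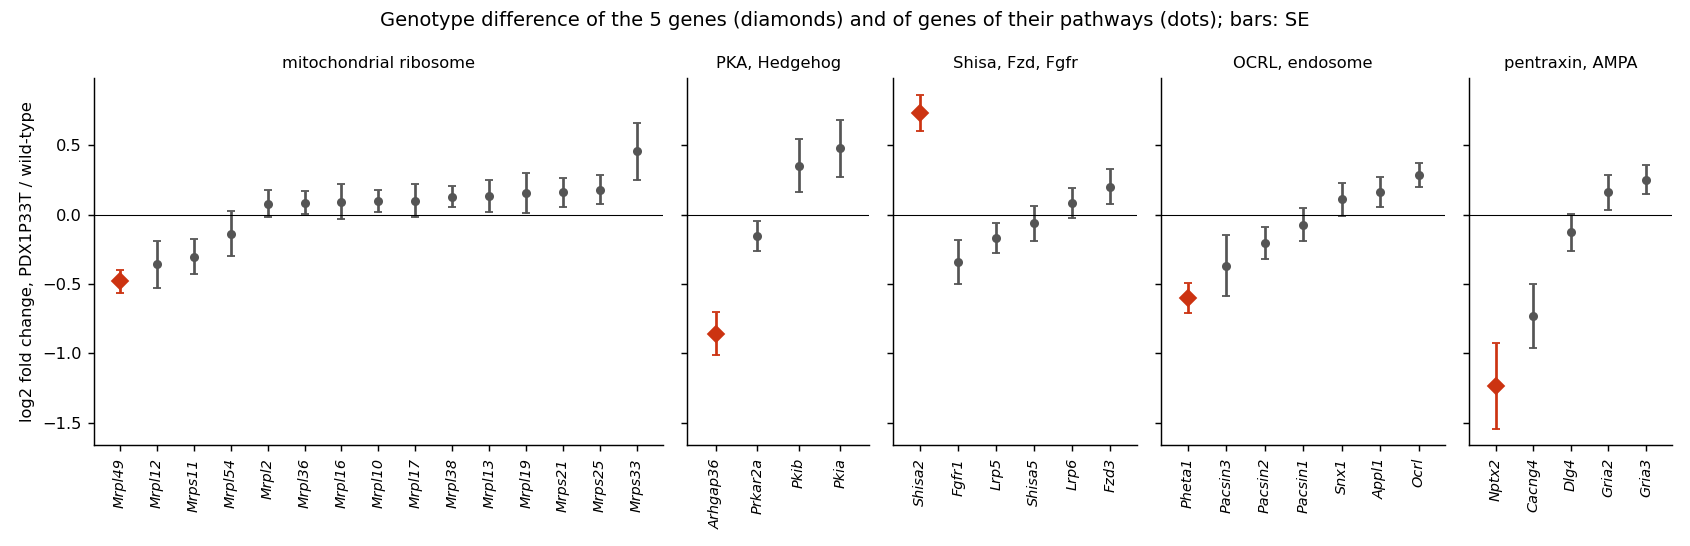
Log2 fold change of PDX1P33T over wild-type for the 5 genes (red diamonds) and the 32 comparable genes of their processes (grey dots), in 5 panels, with standard errors. The 5 genes were chosen on this contrast, and the grey dots lie between -0.73 and 0.48.

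The 5 genes lie on 4 chromosomes, and *Pheta1* and *Nptx2* are on chromosome 5, as is the edited *Pdx1*, at 25.4 and 2.71 megabases from it in GRCm38. Of the compared genes 6.65% are on chromosome 5. Within 5 megabases of *Pdx1*, 29 genes could be compared, with a median log2 fold change of -0.11. Of the 29, 0 were called by limma (0.0847% of all compared genes) and 1 had groups that did not overlap (4.85%). The nearest genes in the table on either side of each of the 5, and *Syvn1*, made 21 neighbours, 9 of them comparable. None of the 9 was called by limma (0.0847% of all compared genes), and their log2 fold changes ran from -0.45 to 0.29. An unadjusted p under 0.05 (34.0% of all compared genes) was found for 1 of the 9, put back through its reads.

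*Fau*, the ribosomal protein gene that starts 59 bases from *Mrpl49* on the other strand, stood at 404 FPKM in PDX1P33T. *Znhit2*, behind *Fau*, was the neighbour with an unadjusted p under 0.05, at 10.4 FPKM in wild-type and 7.36 FPKM in PDX1P33T (-0.45, SE 0.20, adjusted p = 0.573). Around *Arhgap36*, *Rbmx2* was at -0.17 (SE 0.079), and its groups did not overlap, as for 4.85% of all compared genes. On either side of *Shisa2*, *Cdadc1* was at 0.05 (SE 0.089) and *Atp8a2* at -0.14 (SE 0.14). Beside *Pheta1*, *Sh2b3* was at -0.45 (SE 0.21, adjusted p = 0.609), *Cux2* at -0.09 (SE 0.14) and *Ppp1cc* at 0.26 (SE 0.14). Beside *Nptx2*, *Trrap* was at -0.16 (SE 0.12).

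**Figure D5:**
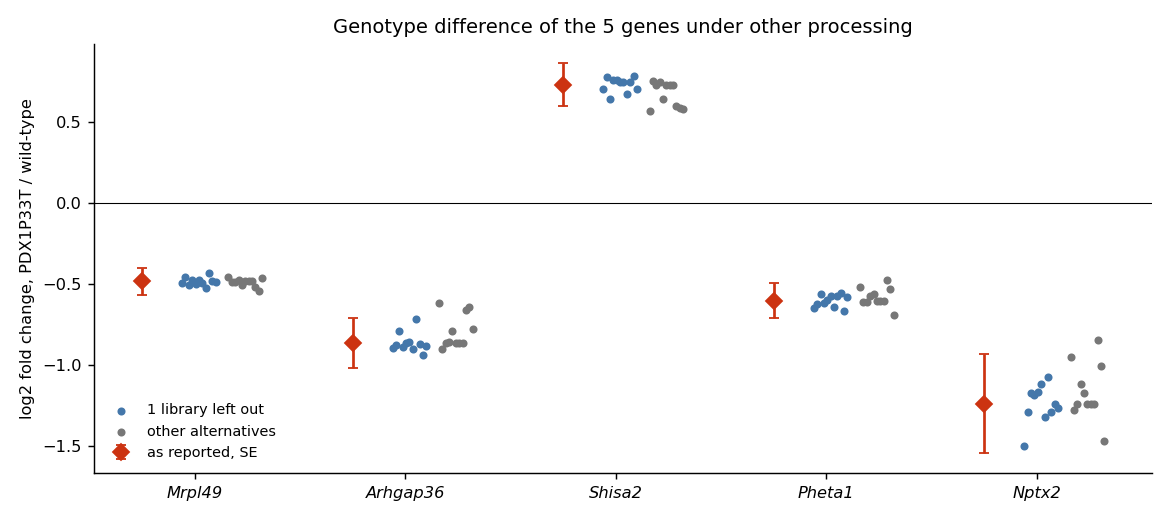
Log2 fold change of PDX1P33T over wild-type for the 5 genes as reported (red, with SE), with 1 library left out (blue) and under the other alternatives (grey). Each gene stays on its side of 0, and *Nptx2* has the widest range, from -1.50 to -0.84. The 5 genes were chosen on this contrast, so nothing is read from their kept direction.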

How the data were processed

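RNA of whole islets was sequenced in 6 wild-type and 5 PDX1P33T libraries. The authors filtered reads with fastp 0.23.1, aligned them with HISAT2 2.0.5, counted them with featureCounts 1.5.0-p3 (versions per the submitters' processing notes, which name GRCm39), and deposited FPKM per gene and library. The 5 genes' FPKM were used as deposited. For other genes wild-type rows were found through their reads in a list of the study (1711 genes) or by gene length and level (group means within 4-fold, at least 100 reads per genotype), which gave 4725 genes. For all 402 genes open to both ways, both gave the same row. Reads were recovered as the whole numbers behind FPKM. Because genes that changed much cannot be matched by level and the list is ordered by the genotype comparison, the compared genes are no random sample. Genotypes were compared with limma 3.58.1 (R 4.3.3, trend and robust) on log2(FPKM + 0.1), with Benjamini-Hochberg adjustment over 19329 genes. Gene lists came from the design, and named genes were the 5 genes, set list members, called genes, 2 neighbours per side (GENCODE vM21, GRCm38) and the 3 genes of most similar pattern. For *Mrpl49* only the first of these is given, and the others are not reported here. The genes, lists and tests were chosen with earlier results of these data known. Replicates differed beyond counting noise (chi-square per gene 5.51 or more), and p-values measure the spread between libraries, taken as independent. PDX1P33T replicates 3 and 5 (5.51) and wild-type replicates 4 and 5 (7.37) were far closer than any other pair (26.8 or more). Whether the libraries of these pairs are independent was not tested. Scripts were tested on simulated data and used Python 3.11.15, numpy 2.4.6, pandas 2.3.3, scipy 1.17.1 and matplotlib 3.10.9.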

Additional observations from a re-analysis of the deposited data

Results flagged for a closer look

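*Arhgap36* in wild-type replicate 3, at 3.91 FPKM, stood far from the other wild-type libraries: its gap to the nearest of them was 0.692 of the group's range, above Dixon's critical value of 0.625 for 6 samples. This library also had the highest endothelial marker level. It was 1 of 10 groups tested, and chance flags about 1 in 20.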

How the results depend on the processing

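The genotype differences of the 5 genes kept their direction and moved by less than 1 residual SD in all 110 combinations of gene and alternative (pseudocounts of 1 and 0.01 FPKM, median centring, limma without trend and robust, other gene filters, group medians, each library left out, the replicate block, and, chosen after the data were seen, the endothelial level as a covariate and both extreme libraries left out). The 5 genes were chosen on this contrast, so their kept direction is no separate evidence. For the 4 whose genotypes did not overlap, leaving out a library or changing the pseudocount could not reverse it. Moves could exceed the SE: *Arhgap36* went from -0.86 (SE 0.15) to -0.61 at a pseudocount of 1 FPKM. With 1 library left out, log2 fold changes ran from -0.52 to -0.43 for *Mrpl49*, -0.94 to -0.71 for *Arhgap36*, 0.64 to 0.78 for *Shisa2*, -0.67 to -0.55 for *Pheta1* and -1.50 to -1.07 for *Nptx2*. Called genes of the related processes numbered 0 under each of 22 alternatives, including no limit on the fold change. In the main limma fit the lowest adjusted p of the 32 was 0.499. Lifting the limit on the fold change could therefore add no call. Same-numbered libraries did not deviate together (correlations of deviations from -0.60 to 0.11 by title number and -0.60 to 0.12 by library name number). These correlations show no pairing by number, but they cannot exclude it. With a replicate block by title number the 5 log2 fold changes were -0.48, -0.86, 0.75, -0.58 and -1.11 in the order above, and over all compared genes 1 was called in place of 4. The shallowest value of the 5 genes, *Nptx2* in PDX1P33T replicate 2, rests on 65 reads, and comparisons with other genes cover 4725 of 19329.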
